A study of Mus musculus with 8 samples.

Results

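The genes examined here encode the ligands and receptors of axon guidance: semaphorins with their plexin and neuropilin receptors, netrins with Dcc and the Unc5 receptors, Slits with Robo receptors, and ephrins with Eph receptors. They were chosen by symbol, as names that begin with Sema, Plxn, Epha, Ephb, Efna, Efnb, Slit and a digit, Robo or Unc5, together with Nrp1, Nrp2, Dcc, Ntn1, Ntn3 and Ntn4, with a few symbols left out. The rule itself holds no measured value, although the theme was picked with earlier results of these data known, and it gave 69 of the 21761 genes in the count table. Of these, 33 are ligands and 34 are receptors. The other 2, Unc50 and Unc5cl, share only the beginning of the name and are kept as name matches.

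The 2 groups were 4 libraries from MPTP-treated mice and 4 libraries from saline-treated mice. All were C57BL/6 mice. The MPTP mice received MPTP-HCl by the intraperitoneal route once a day for 5 days at 30 mg/kg free base, the saline mice received saline on the same schedule, and both were sampled 4 days after the last injection. MPTP is a neurotoxin whose active metabolite enters dopaminergic neurons and blocks complex I of mitochondria. The RNA was obtained by TRAP (translating ribosome affinity purification), which pulls down tagged ribosomes with the RNA bound to them from a chosen cell type, here dopaminergic neurons of the midbrain. The labels do not give the promoter that drives the ribosome tag, do not say whether replicates are separate animals, and describe RNA from the substantia nigra and the ventral tegmental area either together or apart. The authors put SN, the usual short form of substantia nigra, in the title of the count table, with no more on the dissection. P-values therefore measure only how far these samples vary, and that variation may be technical.

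Guidance ligands steer growing axons by attraction or repulsion, and the same receptors act in synapse formation and maintenance in the adult brain. Netrin-1 attracts through Dcc and repels through Unc5 receptors, Slits repel through Robo receptors, class 3 semaphorins act through a neuropilin paired with a plexin, and most other semaphorins bind plexins directly. Ephrins and Ephs are both membrane-bound, and signals pass in both directions between touching cells. In the midbrain, netrin-1 with Dcc, the Slit and Robo pair, and semaphorins with neuropilins are known from the outgrowth of dopaminergic axons toward the forebrain.

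Library totals ranged from 66450856 to 78892061 counts in MPTP and from 54192354 to 69333470 counts in saline, and the 69 genes held 0.177% to 0.188% of the counts in MPTP libraries and 0.167% to 0.186% in saline libraries. Slc6a3, the dopamine transporter, averaged 2910 CPM (read counts relative to the library size after TMM scaling, in the usual unit) in MPTP and 3417 CPM in saline, so the labelled cell type was present in both groups. On the first principal component, with 20.5% of the variance, the library saline 3 lay at -24.1, beyond the MPTP libraries (-23.0 to -15.3) and away from the other saline libraries (26.9 to 38.9). Mean log2 CPM over 64 markers of astrocytes, oligodendrocytes, microglia and endothelium was 2.63 ± 0.18 in MPTP libraries and 2.37 ± 0.43 in saline libraries (n = 4 each, SD, exact two-sided permutation p = 0.286). It was 2.97 in saline 3 and lowest, at 2.01, in saline 2. No gene of these lists was at 0 in every library. The score of 16 dopaminergic markers was 7.44 ± 0.11 in MPTP and 7.58 ± 0.29 in saline (exact two-sided permutation p = 0.4), with 7.15 in saline 3. The smallest p this test can give with n = 4 each is 0.0286. Without saline 3 the difference (MPTP minus saline) was 0.454 in the non-neuronal score and -0.285 in the dopaminergic score. Neither score then overlapped between groups. The exact two-sided permutation p was 0.0571 for each, the smallest this test can give without saline 3, so it could not fall under 0.05. Astrocyte, oligodendrocyte and microglia scores were each higher in every MPTP library than in saline 1, 2 and 4, whereas endothelial scores overlapped. A list of 12 markers of nigral neurons had scores of 7.44 to 7.61 in MPTP and 7.48 to 8.15 in saline, and a list of 12 markers of ventral tegmental neurons had scores of 4.93 to 5.19 in MPTP and 4.55 to 4.84 in saline, with no overlap. The part of these marker shifts in the values below was not tested. In bulk RNA, fewer cells of a type and less RNA per cell cannot be told apart.

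Levels were compared between genes as RPKM, which divides CPM by the length of a gene's exons in kilobases. Over the 8 libraries the mean RPKM ranged from 0.0177 for Robo3 to 22.7 ± 1.24 (SD) for the name match Unc50, a conserved Golgi protein, and 44 of the 69 genes reached 1 RPKM. The median RPKM of the 69 genes was 1.92, against 3.79 for the 15842 tested genes with a length. Sema6d, a membrane-bound semaphorin that binds plexin-A1, was the highest ligand at 19.4 ± 1.28 RPKM. Ntn1 (netrin-1) followed at 12.3 ± 1.86 RPKM and Plxna1 at 11.2 ± 1.2 RPKM, and the difference between these neighbours is smaller than their spread. Next came Sema5b, a thrombospondin-repeat semaphorin, at 9.11 ± 0.815 RPKM and Unc5a, a repulsive netrin receptor, at 8.65 ± 1.34 RPKM, again within their spread. The Eph receptors Epha5 and Epha4 reached 7.92 ± 0.468 and 7.72 ± 0.666 RPKM. Thus Sema6d and its receptor gene Plxna1 both stood among the highest levels, and each netrin signalling partner was present, with Dcc at 4.68 ± 0.524 RPKM and Unc5c at 2.56 ± 0.111 RPKM. With the length of the longest transcript in place of all exons, 6 of the 8 highest genes were the same.

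**Figure D1:**
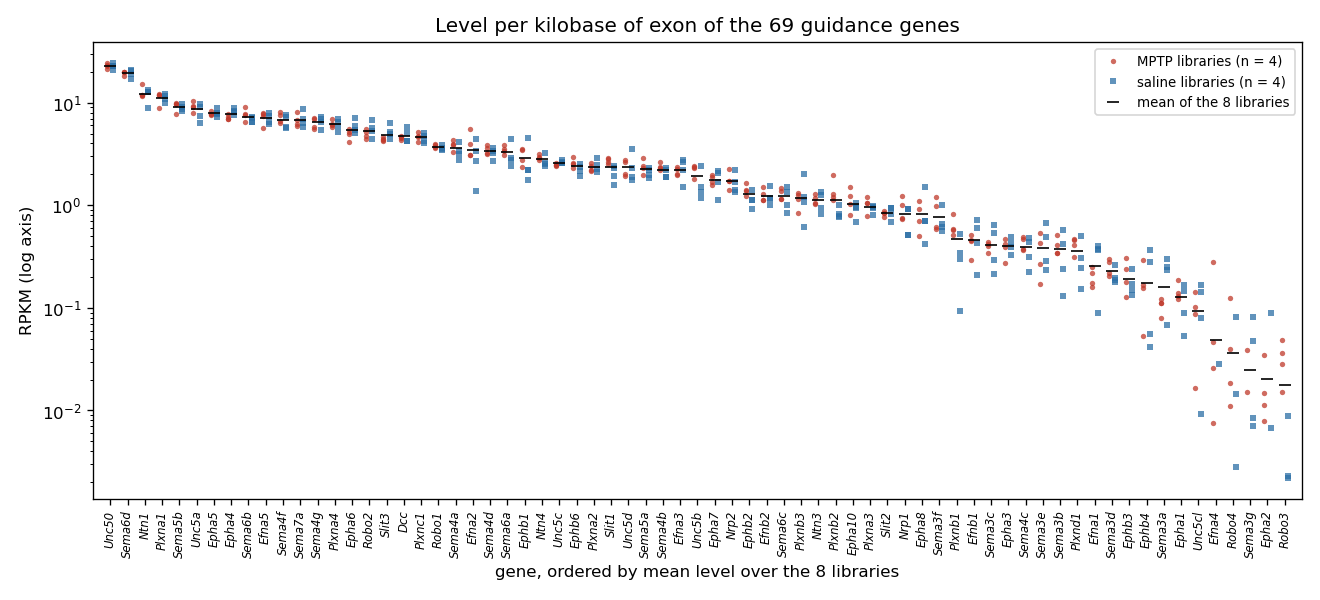
Level of each of the 69 genes (horizontal axis, ordered by the mean) as RPKM on a log axis, with red circles for the 4 MPTP libraries, blue squares for the 4 saline libraries and black bars for the mean of all 8, libraries with 0 counts not being drawn. The means run from 22.7 RPKM for Unc50 to 0.0177 RPKM for Robo3, and the symbols of both groups are mixed for nearly all genes.

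The design asks how the toxin changes ribosome-bound RNA in these neurons. Of the 69 genes, 64 had enough counts to be tested. No guidance gene passed the threshold (adjusted p of 0.05 over all 15999 genes, edgeR quasi-likelihood test), where 17 genes of the whole table did (0.106%), 12 of them higher (0.075%) and 5 lower (0.0313%). DESeq2 called 0 of the 64 as well and 53 of all genes (0.331%). At an unadjusted p under 0.05 stood 7 of the 64 (10.9%), beside 1405 of all genes (8.78%). Of these, 5 were higher (7.81% of the 64: Plxnb2, Plxnb1, Slit1, Unc5b and Ephb2, beside 4.28% of all genes) and 2 were lower (3.12%: Sema3a and Slit3, beside 4.5%). The MPTP and saline libraries did not overlap for 2 of the 64 (3.12%), Plxnb2 and Slit1, beside 670 of all genes (4.19%). Both were higher in MPTP, and of all genes 2.04% were higher without overlap and 2.14% lower.

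The median log2 fold change (MPTP over saline) of the 64 genes was 0.06, against 0.00 over all genes tested, and 41 of 64 (64.1%) were above 0, against 50.1% of all genes. Among ligands 21 of 31 lay above 0 with a median of 0.09, and among receptors 19 of 31 with a median of 0.045. For 38 of the 64 genes the 95% interval of the fold stayed within 1.5-fold in either direction, and for 51 within 2-fold. Larger changes of these genes lie outside their intervals. Of all 15999 genes tested, 10027 stayed within 1.5-fold and 12632 within 2-fold, so such intervals were not particular to the guidance genes. The saline 2 library held the lowest CPM of all 8 libraries for 26 of the 64 genes (40.6%), against 16.2% of all genes, and saline 3 held the highest for 15 (23.4%), against 13.9%. Without saline 3, edgeR called 2 of 66 tested guidance genes, Plxnb2 and Unc5b, both higher, beside 297 of all genes (1.84%; 0.853% of all genes were called higher and 0.983% lower). Sema3g and Robo3 entered the test there only, and Robo3 passed the low-count filter through its MPTP libraries, so the next counts leave both out. Of the other 64 genes, 13 had an unadjusted p under 0.05 (20.3%, against 16.9% of all genes), 10 of them higher (15.6%, against 8.68%) and 3 lower (4.69%, against 8.25%). By role, those 13 were 3 of 31 ligands (9.68%, all higher) and 10 of 31 receptors (32.3%, 7 higher and 3 lower), against 16.9% of all genes. With all 8 libraries the counts had been 3 of 31 ligands and 4 of 31 receptors, against 8.78% of all genes. Groups without overlap were found for 9 of the 64 (14.1%, against 14.7%), 7 higher (10.9%, against 7.22%) and 2 lower (3.12%, against 7.52%), and the median log2 fold change was 0.13. DESeq2 called 5 of the 66 there (Ephb1, Plxnb1, Plxnb2, Sema6a and Unc5b), beside 829 of all genes (5.12%). A further edgeR fit held the non-neuronal marker score as a term. This score-adjusted fit called 0 guidance genes, both with all 8 libraries (17 of all genes, 0.106%) and without saline 3 (26 of all genes, 0.161%). The log2 fold changes in the last of these were 1.27 for Plxnb2 (adjusted p = 0.157), 1.54 for Plxnb1 (adjusted p = 0.329) and 0.66 for Ephb2 (adjusted p = 0.345). With all 8 libraries the score-adjusted values were 0.71 for Plxnb2, 0.86 for Plxnb1 and 0.25 for Ephb2. Without saline 3, the score was higher in every MPTP library than in each remaining saline library. The score-adjusted fit without saline 3 therefore cannot properly separate treatment from the score. Neither its 0 calls nor its fold changes, here and below, show what remains after adjustment for other cell types.

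**Figure D2:**
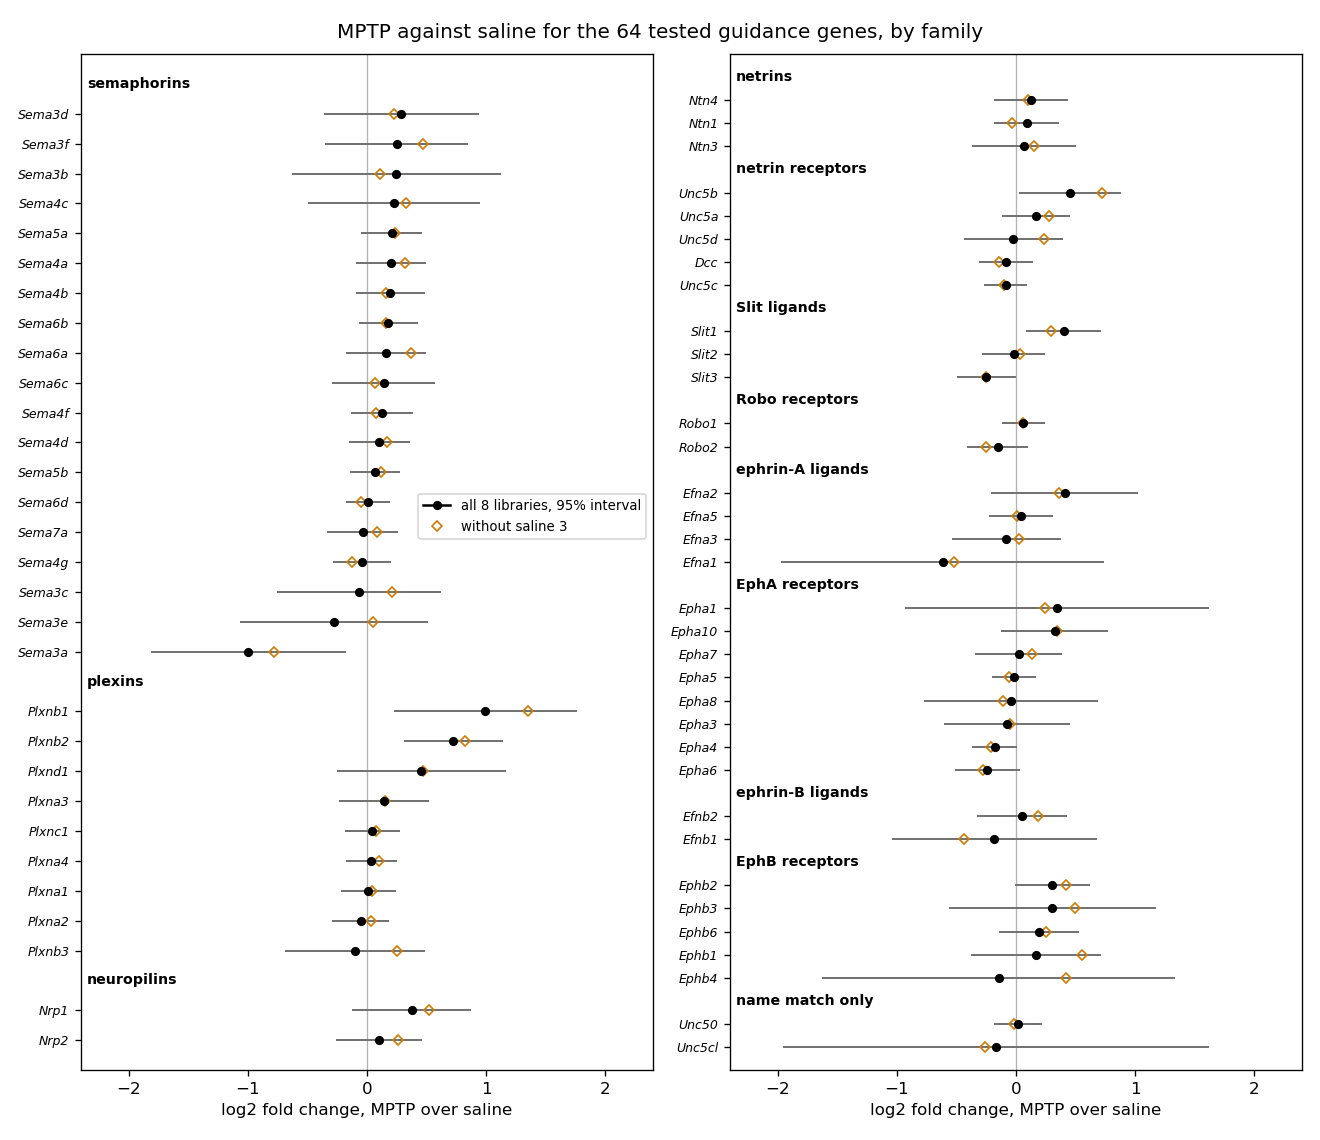
Log2 fold change of MPTP over saline (horizontal axis) for the 64 tested genes grouped by family, with filled circles and 95% intervals for all 8 libraries and open diamonds for the estimate without saline 3. The intervals of 7 genes exclude 0, among them Plxnb1 and Plxnb2 above it and Sema3a below, and several receptors such as Unc5b and Ephb1 move to the right without saline 3.

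The plexins gave the largest higher values, and these came from plexin-B genes. Plxnb2 (chromosome 15, 89155549 to 89180788, minus strand, GRCm38) encodes plexin-B2, a receptor for class 4 semaphorins. It had 9.33, 8.60, 9.96 and 15.1 CPM in MPTP libraries 1 to 4, against 6.01, 6.28, 7.83 and 5.90 CPM in saline libraries 1 to 4. Every MPTP library was above every saline library, with MPTP 4 highest. Its log2 fold change was 0.72 (SE 0.19, 1.65-fold with a 95% interval of 1.25 to 2.19, adjusted p = 0.321). It was 0.83 without saline 3 (adjusted p = 0.0464), 1.27 without saline 3 in the score-adjusted fit (adjusted p = 0.157), and 0.52 without MPTP 4 (adjusted p = 0.755). In the score-adjusted fit with all 8 libraries it was 0.71 (adjusted p = 0.477).

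Plxnb1 (chromosome 9, 109095389 to 109119917, plus strand) encodes plexin-B1, the receptor of Sema4d. It had 4.96, 5.57, 5.67 and 7.94 CPM in MPTP libraries, against 2.87, 3.31, 5.02 and 0.894 CPM in saline libraries. Saline 3 lay just above the lowest MPTP library, and saline 4 was far below the rest. For Plxnb1 the log2 fold change was 0.99 (SE 0.36, 1.99-fold with a 95% interval of 1.18 to 3.37, adjusted p = 0.456), or 1.35 without saline 3 (adjusted p = 0.0551), 1.54 without it in the score-adjusted fit, and 0.70 without saline 4. The score-adjusted fit with all 8 libraries gave 0.86 (adjusted p = 0.653). Of its exonic bases, 257 (2.68%) overlap a gene on the other strand, Gm7628, whose reads cannot be told apart in an unstranded library. The third gene of the subfamily, Plxnb3, had a log2 fold change of -0.10 (95% interval -0.68 to 0.48), with 13.2 CPM in saline 3 as the highest of the 8 libraries. The oligodendrocyte marker score was also highest there, at 5.89, against 5.35 to 5.54 in MPTP libraries and 4.78 to 5.05 in the other saline libraries. So were the astrocyte and endothelial scores, at 4.40 and 0.558, but not the microglia score, and a link to Plxnb3 was not tested.

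The promoters of both genes are shown because these are the pair of related receptors with the largest higher values. They are taken from RefSeq (GRCm38.p6), from 250 bases before to 50 after the start RefSeq gives, which for Plxnb1 lies 47 bases downstream of the gene start given above, 5′ to 3′ on the gene's strand, chr9:109095186-109095485 (plus) for Plxnb1 and chr15:89180739-89181038 (minus) for 1 of 2 entries of Plxnb2. Capitals mark GC boxes (GGGCGG, or CCGCCC on the other strand).
Plxnb1: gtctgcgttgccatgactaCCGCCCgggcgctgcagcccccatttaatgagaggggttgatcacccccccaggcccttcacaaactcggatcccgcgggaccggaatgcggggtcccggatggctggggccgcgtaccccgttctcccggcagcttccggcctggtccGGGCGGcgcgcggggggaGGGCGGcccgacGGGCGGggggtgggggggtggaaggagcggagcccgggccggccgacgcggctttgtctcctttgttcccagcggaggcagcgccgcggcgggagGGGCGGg
Plxnb2: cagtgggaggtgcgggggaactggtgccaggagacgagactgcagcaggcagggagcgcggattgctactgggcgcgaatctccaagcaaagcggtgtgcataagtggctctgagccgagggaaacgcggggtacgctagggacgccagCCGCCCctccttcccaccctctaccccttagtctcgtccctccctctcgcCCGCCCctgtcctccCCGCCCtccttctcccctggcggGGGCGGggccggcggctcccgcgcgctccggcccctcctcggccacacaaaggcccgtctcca
The Plxnb1 window held 5 such matches and the Plxnb2 window 4, with 74.7% and 70.3% of bases G or C, against a median of 52.7% over all 32851 promoters of the table. A GC box occurred in 35.7% of all promoters and in 55 of 76 promoters of the guidance genes (72.4%), of which 60 of 69 had an entry. The AP-1 motif (TGANTCA on either strand) was in neither window. It occurred in 7.81% of all promoters and in 3 of the 76, those of Sema4c, Sema4d and Sema6b. The CRE motif (TGACGTCA, its own reverse complement) was in 1.79% of all promoters and in 1 of the 76, that of Epha2.

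The plexin-A genes, which carry the signal of class 3 and class 6 semaphorins, lay close to 0. Their 4 log2 fold changes had a median of 0.02, and all 4 intervals stayed within 1.5-fold. Plxna1 had 109.8, 108.2, 80.4 and 107.4 CPM in MPTP libraries, against 89.8, 97.4, 106.0 and 109.1 CPM in saline libraries. The groups overlapped and MPTP 3 was lowest, and the log2 fold change was 0.01 (95% interval -0.21 to 0.23, adjusted p = 0.986). An antisense gene, Gm26811, overlaps 970 of its exonic bases (10.7%). Plxna4, the main partner of Nrp1 for Sema3a, averaged 88.2 ± 6.79 CPM in MPTP and 86.0 ± 10.6 CPM in saline (log2 fold change 0.04; here and below, ± gives the SD with n = 4 per group). Plxna2 and Plxna3 had log2 fold changes of -0.05 and 0.14, Plxnd1, the receptor of Sema3e, of 0.46 (95% interval -0.25 to 1.16), and Plxnc1, the receptor of Sema7a, of 0.04 (95% interval -0.18 to 0.27).

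**Figure D3:**
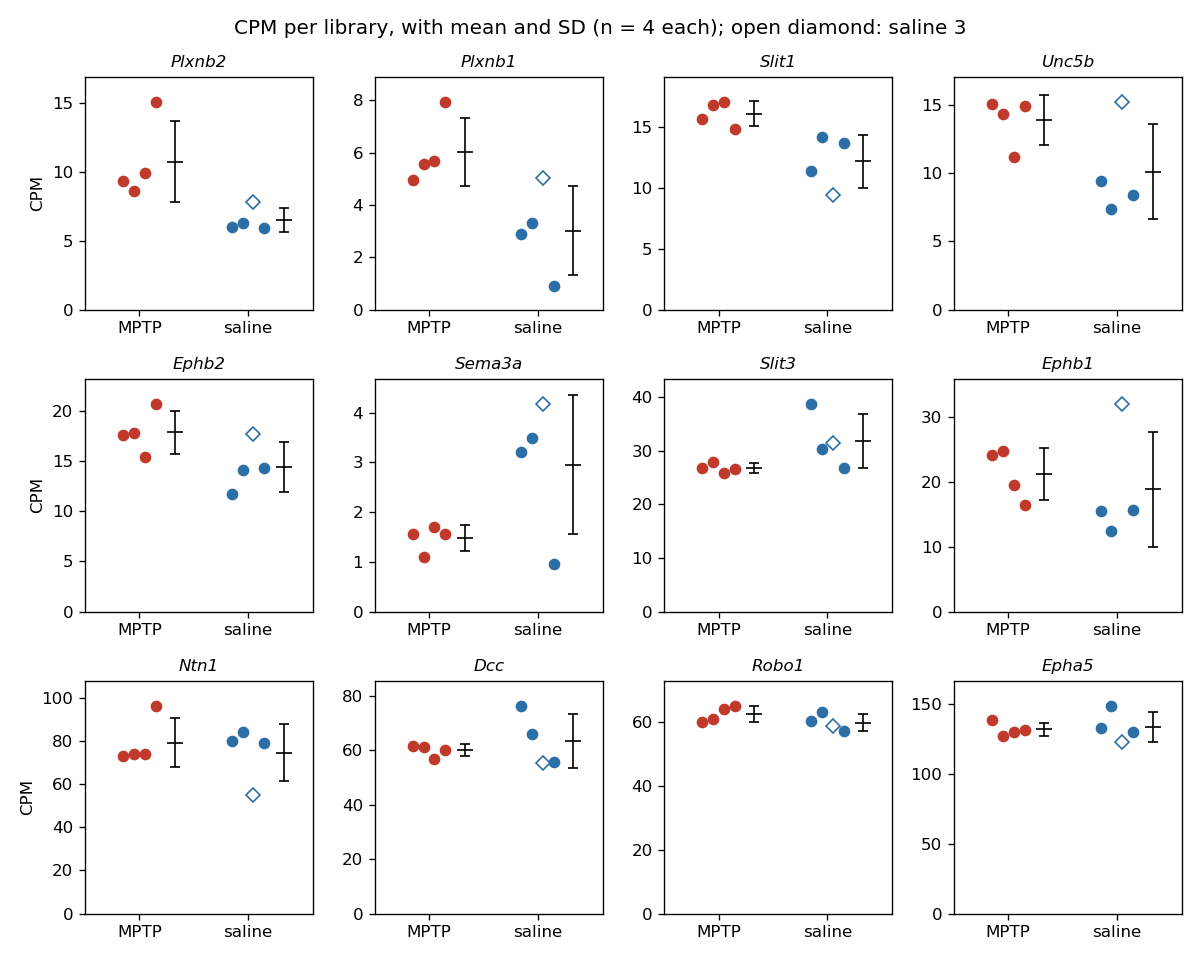
CPM (vertical axes, from 0) of 12 guidance genes in the MPTP libraries (red circles) and the saline libraries (blue circles, with saline 3 as an open diamond), beside the mean and SD of each group (n = 4). Plxnb2 and Slit1 show no overlap, whereas for Plxnb1, Unc5b, Ephb2 and Ephb1 the saline 3 library lies among or above the MPTP libraries.

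Both neuropilins overlapped between groups. Nrp1, the co-receptor of Sema3a, had 9.94, 11.9, 7.42 and 7.17 CPM in MPTP libraries, against 9.04, 5.03, 9.05 and 5.00 CPM in saline libraries. The saline values formed a low and a high pair, and the log2 fold change was 0.37 (95% interval -0.12 to 0.87, adjusted p = 0.671). In the score-adjusted fit it was 0.11. Nrp2, the co-receptor of Sema3f, averaged 21.1 ± 4.22 CPM in MPTP and 19.7 ± 4.59 CPM in saline (log2 fold change 0.10).

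Among the 20 semaphorins, 19 were tested, 14 lay above 0 and 0 passed the threshold, with a median log2 fold change of 0.14. Sema3a (chromosome 5, 13125414 to 13602565, plus strand), a secreted repellent, had the lowest log2 fold change of the 64 genes. It had 1.56, 1.11, 1.70 and 1.56 CPM in MPTP libraries, against 3.21, 3.49, 4.18 and 0.951 CPM in saline libraries. The MPTP libraries were alike and 3 saline libraries were higher, but saline 4 was the lowest of the 8. The log2 fold change was -1.0 (SE 0.38, 95% interval -1.81 to -0.19, adjusted p = 0.488), with -0.78 without saline 3 and -1.28 without saline 4. Saline 4 was thus the lowest library for both Sema3a and Plxnb1.

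The other class 3 genes, all secreted, were low in level and had wide intervals. Sema3f, which repels through Nrp2, averaged 4.38 ± 1.52 CPM in MPTP and 3.69 ± 1.07 CPM in saline (log2 fold change 0.25, 95% interval -0.34 to 0.84). Sema3e averaged 3.25 ± 1.48 CPM in MPTP and 3.93 ± 1.90 CPM in saline (log2 fold change -0.28), and its value was 0.05 without saline 3. Sema3b, Sema3c and Sema3d had log2 fold changes of 0.25, -0.07 and 0.29.

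Of the 6 class 4 genes, which are membrane-bound ligands of plexin-B receptors among others, 5 lay above 0 with a median of 0.16. Sema4a had 23.4, 21.5, 17.8 and 21.0 CPM in MPTP libraries, against 17.2, 15.0, 22.2 and 18.3 CPM in saline libraries, with a log2 fold change of 0.20 (95% interval -0.08 to 0.49). The groups overlapped through MPTP 3, saline 3 and saline 4. Sema4d, the ligand of plexin-B1, averaged 26.7 ± 2.61 CPM in MPTP and 24.8 ± 3.0 CPM in saline, a log2 fold change of 0.10 (95% interval -0.14 to 0.35). Sema4b, Sema4c and Sema4f had log2 fold changes of 0.20, 0.23 and 0.13, and Sema4g one of -0.04.

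The class 5 genes Sema5a and Sema5b had log2 fold changes of 0.21 (95% interval -0.04 to 0.45) and 0.07 (95% interval -0.14 to 0.27). Sema6d, with the highest level of the ligands, had 190.3, 211, 208 and 212 CPM in MPTP libraries, against 215, 219.9, 179.9 and 202 CPM in saline libraries. The groups overlapped fully, and the 95% interval of the fold was 0.888 to 1.14. Sema6b averaged 30.7 ± 4.21 CPM in MPTP and 27.1 ± 1.58 CPM in saline (log2 fold change 0.18), Sema6a had a log2 fold change of 0.16, or 0.37 without saline 3, and Sema6c one of 0.14. Sema7a, a membrane-anchored ligand of plexin-C1, averaged 22.2 ± 3.21 CPM in MPTP and 22.8 ± 3.98 CPM in saline (log2 fold change -0.04).

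All 3 netrins had overlapping groups. Ntn1 (chromosome 11, 68209364 to 68400823, minus strand) had 73.1, 73.9, 74.3 and 96.3 CPM in MPTP libraries, against 80.0, 84.3, 55.2 and 79.2 CPM in saline libraries. MPTP 4 was the highest library and saline 3 the lowest, and the other 3 libraries of each group lay within 73.1 to 84.3 CPM. The log2 fold change was 0.09 (SE 0.13, 95% interval -0.18 to 0.36, adjusted p = 0.877), or -0.03 without saline 3, and 0.27 in the score-adjusted fit (adjusted p = 0.635). Ntn3 and Ntn4 had log2 fold changes of 0.07 and 0.13.

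The netrin receptors divided into a steady pair and a more variable group. Dcc, the attractive receptor, had 61.7, 61.2, 56.8 and 60.3 CPM in MPTP libraries, against 76.3, 66.2, 55.4 and 55.8 CPM in saline libraries. The MPTP values lay inside the saline range, and the log2 fold change was -0.08 (95% interval -0.30 to 0.14, adjusted p = 0.860). Unc5c, a repulsive receptor, had 47.3, 45.8, 47.1 and 49.8 CPM in MPTP libraries, against 49.9, 52.5, 49.1 and 50.4 CPM in saline libraries. Its highest library was 1.14 times its lowest, and the log2 fold change was -0.09 (95% interval -0.26 to 0.09).

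Unc5b (chromosome 10, 60762593 to 60831581, minus strand), also a repulsive receptor, had 15.1, 14.4, 11.2 and 14.9 CPM in MPTP libraries, against 9.46, 7.39, 15.2 and 8.43 CPM in saline libraries. All MPTP libraries exceeded saline 1, 2 and 4, but saline 3 was the highest of the 8. For Unc5b the log2 fold change was 0.46 (SE 0.20, 1.37-fold with a 95% interval of 1.03 to 1.83, adjusted p = 0.518). Without saline 3 it was 0.72 (adjusted p = 0.0341), and in the score-adjusted fit it was 0.28 (adjusted p = 0.798). Its promoter (RefSeq, GRCm38.p6, chr10:60831532-60831831, minus), shown as that of the other gene called without saline 3, held 3 GC boxes, in capitals, and neither an AP-1 nor a CRE motif.
Unc5b: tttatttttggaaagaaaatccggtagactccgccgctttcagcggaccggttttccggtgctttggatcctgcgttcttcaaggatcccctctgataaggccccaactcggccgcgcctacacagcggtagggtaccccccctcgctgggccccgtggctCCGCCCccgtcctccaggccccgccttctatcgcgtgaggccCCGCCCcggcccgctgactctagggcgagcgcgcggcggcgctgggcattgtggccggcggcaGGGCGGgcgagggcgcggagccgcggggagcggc
Unc5a averaged 38.2 ± 4.24 CPM in MPTP and 33.9 ± 6.56 CPM in saline, a log2 fold change of 0.17 (95% interval -0.11 to 0.45). Unc5d had a log2 fold change of -0.02, or 0.23 without saline 3.

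The 3 Slit ligands differed in direction among themselves. Slit1 (chromosome 19, 41600257 to 41743665, minus strand) had 15.6, 16.7, 17.0 and 14.8 CPM in MPTP libraries, against 11.4, 14.1, 9.43 and 13.7 CPM in saline libraries. Every MPTP library was above every saline library, with a narrow gap between MPTP 4 and saline 2. This gave a log2 fold change of 0.40 (SE 0.14, 1.32-fold with a 95% interval of 1.07 to 1.63, adjusted p = 0.451). Saline 3 was its lowest library, and the value was 0.30 without that library and 0.55 in the score-adjusted fit (adjusted p = 0.449).

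Slit3 (chromosome 11, 35121224 to 35708507, plus strand) had 26.8, 27.9, 25.8 and 26.5 CPM in MPTP libraries, against 38.7, 30.3, 31.5 and 26.8 CPM in saline libraries. The MPTP libraries were tightly grouped, saline 1 was highest, and saline 4 lay among the MPTP libraries. The log2 fold change was -0.25 (SE 0.11, 0.841-fold with a 95% interval of 0.712 to 0.994, adjusted p = 0.547), with -0.14 without saline 1, -0.25 without saline 3 and -0.54 without saline 3 in the score-adjusted fit. With all 8 libraries the score-adjusted value was -0.29 (adjusted p = 0.669). Slit2 averaged 21.2 ± 1.30 CPM in MPTP and 21.5 ± 3.11 CPM in saline (log2 fold change -0.02).

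Of the Slit receptors, Robo1 had 60.0, 60.8, 64.1 and 65.0 CPM in MPTP libraries, against 60.2, 63.1, 58.9 and 57.0 CPM in saline libraries. It was the steadiest of the receptors named, with the highest library 1.14 times the lowest, as for Unc5c, and the 95% interval of the fold was 0.927 to 1.18. Robo2 had 80.8, 75.1, 94.4 and 87.2 CPM in MPTP libraries, against 90.2, 114, 74.5 and 96.7 CPM in saline libraries. Its groups overlapped, with a log2 fold change of -0.16 (95% interval -0.40 to 0.09) that was 0.01 in the score-adjusted fit.

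The EphA receptors lay on both sides of 0, with 3 of 8 tested above 0 and a median of -0.03. Epha4, which binds ephrins of both classes, had 56.2, 56.1, 62.6 and 58.5 CPM in MPTP libraries, against 71.6, 65.0, 61.0 and 66.3 CPM in saline libraries. MPTP 3 lay above saline 3, the other libraries did not overlap, and the log2 fold change was -0.18 (95% interval -0.36 to 0.00, adjusted p = 0.579). Epha6 averaged 26.3 ± 3.13 CPM in MPTP and 31.0 ± 4.61 CPM in saline, a log2 fold change of -0.24 (95% interval -0.50 to 0.02, adjusted p = 0.602). For Epha6 it was -0.13 without saline 1 and -0.57 without saline 3 in the score-adjusted fit, against -0.25 in that fit with all 8 libraries. Epha5, a receptor of ephrin-A ligands, had 138, 127, 130.0 and 131 CPM in MPTP libraries, against 132, 148, 123 and 130.0 CPM in saline libraries. The groups overlapped, and the 95% interval of the fold was 0.876 to 1.11. Epha10, an Eph receptor without kinase activity, averaged 8.22 ± 2.18 CPM in MPTP and 6.57 ± 1.11 CPM in saline (log2 fold change 0.32, 95% interval -0.11 to 0.76). Epha1, Epha3, Epha7 and Epha8 had log2 fold changes of 0.34, -0.07, 0.02 and -0.04.

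Of the EphB receptors, which bind ephrin-B ligands, 4 of 5 lay above 0 with a median of 0.19, and the median was 0.42 without saline 3. Ephb2 (chromosome 4, 136647539 to 136835988, minus strand) had 17.5, 17.8, 15.4 and 20.7 CPM in MPTP libraries, against 11.7, 14.1, 17.7 and 14.2 CPM in saline libraries. The groups overlapped through saline 3 alone, and the log2 fold change was 0.31 (SE 0.14, 1.24-fold with a 95% interval of 1.00 to 1.52, adjusted p = 0.558). Ephb1 had 24.2, 24.7, 19.5 and 16.4 CPM in MPTP libraries, against 15.5, 12.4, 32.0 and 15.6 CPM in saline libraries. Saline 3 was the highest of the 8 and the other saline libraries were the 3 lowest. For Ephb1 the log2 fold change was 0.17 (95% interval -0.37 to 0.71, adjusted p = 0.885), or 0.55 without saline 3 (adjusted p = 0.0787), and -0.10 in the score-adjusted fit. Ephb3, Ephb4 and Ephb6 had log2 fold changes of 0.30, -0.15 and 0.19.

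Ephrin ligands were spread around 0. Efna5, a membrane-anchored ligand of EphA receptors, averaged 29.2 ± 4.12 CPM in MPTP and 28.3 ± 3.26 CPM in saline (log2 fold change 0.04, 95% interval -0.22 to 0.30). Efna1 averaged 0.367 ± 0.0754 CPM in MPTP and 0.563 ± 0.267 CPM in saline, and its interval was wide (log2 fold change -0.61, 95% interval -1.96 to 0.73). Efnb2, a transmembrane ligand of EphB receptors, averaged 8.67 ± 1.21 CPM in MPTP and 8.38 ± 1.63 CPM in saline (log2 fold change 0.05). Efna2, Efna3 and Efnb1 had log2 fold changes of 0.41, -0.08 and -0.18. The name matches Unc50 and Unc5cl had log2 fold changes of 0.02 and -0.17.

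**Figure D4:**
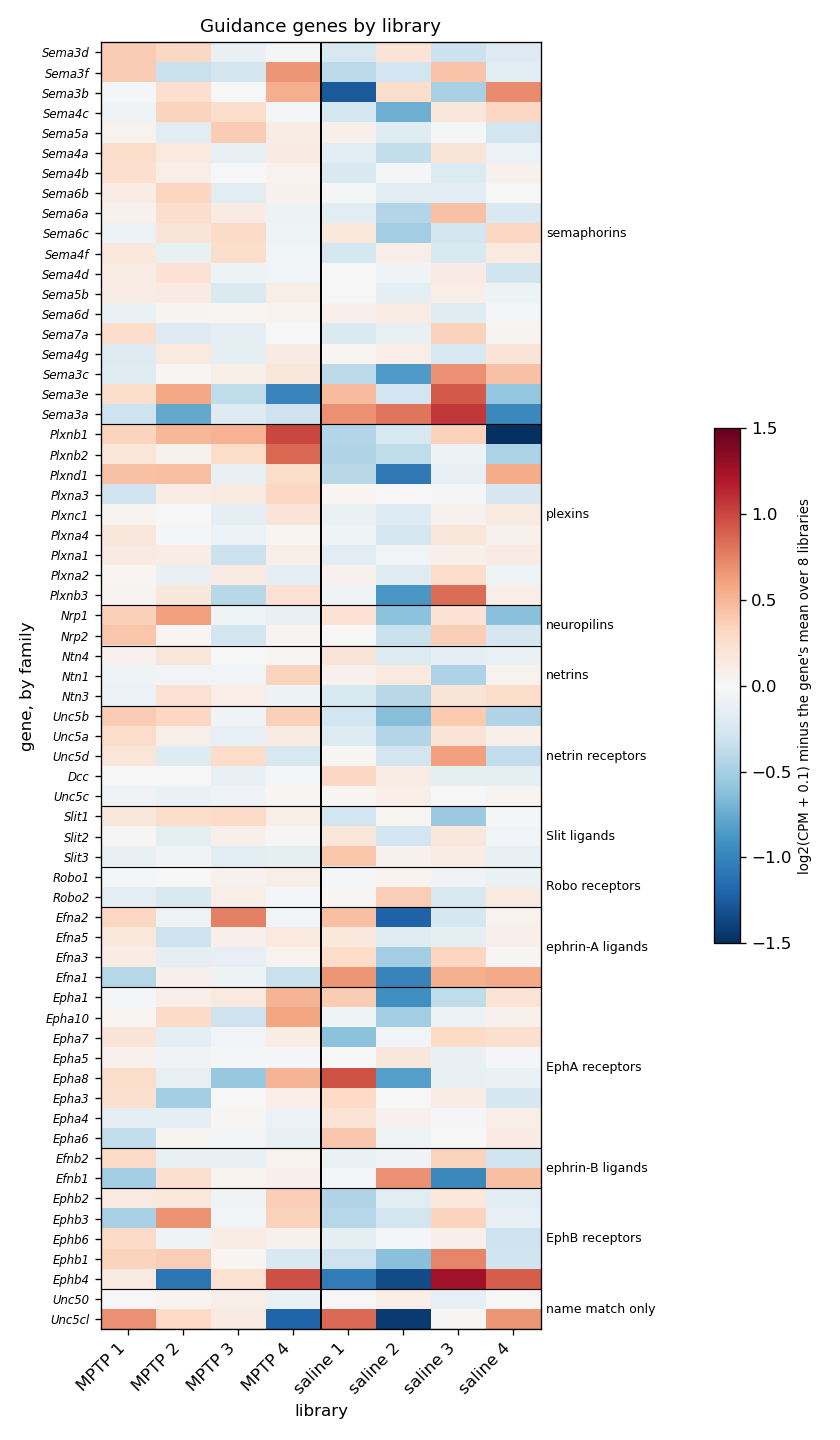
Deviation of each of the 64 tested genes (rows, by family) from its own mean over the 8 libraries (columns, MPTP then saline), in log2(CPM + 0.1) and coloured from blue (below) to red (above). Blue cells are frequent in saline 2, the library with the lowest CPM for 26 of the 64 genes, and saline 3 is red for Ephb1, Plxnb3, Unc5b and Unc5d, like many MPTP cells.

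The 5 genes removed for low counts with all 8 libraries were Robo3, Robo4, Sema3g, Epha2 and Efna4. Robo3, a Robo receptor of midline-crossing axons, had 16, 18, 7 and 25 counts in MPTP libraries, against 4, 1, 1 and 0 counts in saline libraries, so the groups did not overlap at this very low level. Without the low-count filter its log2 fold change was 3.14, with an adjusted p of 0.480. For Robo4, a Robo receptor of blood vessels, counts were 8, 48, 4 and 16 in MPTP libraries and 5, 1, 27 and 0 in saline libraries. Efna4 had 1, 3, 5 and 34 counts in MPTP libraries and 0, 3, 0 and 0 in saline libraries, Epha2 had 3, 5, 11 and 4 in MPTP libraries and 27, 0, 2 and 0 in saline libraries, and Sema3g had 0, 5, 12 and 0 in MPTP libraries and 14, 25, 2 and 2 in saline libraries. In each of these 4 genes the groups overlapped, and 1 or 2 libraries held most of the counts.

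The 2 further lists held genes that act with these receptors. Both lists were chosen with earlier results of these data known, so their shares are a description and not a test of the lists. Of 48 intracellular effectors of guidance receptors, all tested, 0 passed the threshold, 3 had an unadjusted p under 0.05 (6.25%, all lower, against 8.78% of all genes), and 15 lay above 0 (31.2%, against 50.1%), with a median of -0.05. In the score-adjusted fit with all 8 libraries 21 lay above 0, with a median of -0.01. Pak3, a kinase that acts on the cytoskeleton, had 193.5, 184, 184 and 185 CPM in MPTP libraries, against 264, 225, 189 and 218 CPM in saline libraries. Its log2 fold change was -0.26 (SE 0.09, adjusted p = 0.451), and without saline 3 it was -0.33 (adjusted p = 0.0480). Sos1, an activator of Ras and Rac, averaged 115 ± 6.54 CPM in MPTP and 137 ± 11.6 CPM in saline (log2 fold change -0.25, adjusted p = 0.439). Groups did not overlap for 2 of the 48 (4.17%, against 4.19% of all genes), 1 higher and 1 lower, the lower being Sos1. Farp2 and Dpysl4, which act in semaphorin signalling and on the cytoskeleton, had log2 fold changes of -0.27 and -0.27.

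Of 35 other guidance and growth-inhibition genes, 34 were tested and 0 passed the threshold. At an unadjusted p under 0.05 stood 8 (23.5%, against 8.78% of all genes), 7 higher (20.6%, against 4.28%) and 1 lower (2.94%, against 4.5%), and 25 lay above 0 (73.5%, against 50.1%) with a median of 0.13. The score-adjusted fit with all 8 libraries left 24 above 0, with a median of 0.07. Ptprf, the receptor phosphatase LAR, had 38.6, 36.7, 28.7 and 37.9 CPM in MPTP libraries, against 29.9, 22.6, 26.3 and 25.6 CPM in saline libraries. Its groups overlapped through MPTP 3 and saline 1, and the log2 fold change was 0.44 (adjusted p = 0.328, SE 0.12). Rtn4rl1, a Nogo receptor homologue, averaged 13.6 ± 1.99 CPM in MPTP and 8.63 ± 2.45 CPM in saline (log2 fold change 0.65, adjusted p = 0.401). Rtn4, which encodes the myelin inhibitor Nogo, averaged 328 ± 21.6 CPM in MPTP and 388 ± 26.0 CPM in saline (log2 fold change -0.24, adjusted p = 0.443). Groups did not overlap for 3 of the 34 (8.82%, against 4.19% of all genes), 2 higher and 1 lower, the lower being Rtn4. Flrt3, a membrane protein that binds Unc5 receptors, averaged 51.8 ± 7.44 CPM in MPTP and 40.3 ± 4.77 CPM in saline (log2 fold change 0.36, adjusted p = 0.415).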

How the data were processed

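Ribosome-bound RNA from midbrain dopaminergic neurons of 4 MPTP and 4 saline samples was sequenced as single-end reads, 2 libraries to a run, after amplification with an unstranded kit, per the labels' protocols. The authors deposited raw read counts per gene, with no normalization, for 21761 genes. TopHat2 2.0.8 and the mm10 build were used, per the submitters' processing notes. For the counting tool, the annotation and the strand setting, no name is given in the sources used here. Of the symbols, 27 turned into dates were restored by Entrez identifier, and 90 genes without one held 0.0505% to 0.056% of a library's counts.

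The deposited counts went into edgeR 4.0.16 under R 4.3.3 (TMM scaling, filterByExpr by group, robust quasi-likelihood F-test, no covariate, Benjamini-Hochberg over 15999 genes, threshold 0.05). SE is the size of the log2 fold change over the square root of F. RPKM used exon lengths of GENCODE vM21, which also gave positions and overlaps. Scores are means of log2 CPM (prior count 2). The test was tested on simulated data. Replicates of a group all differed by more than sampling noise. Amplified reads carry no molecular identifiers.

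Alternatives were DESeq2 1.42.0 (size factors, Wald test), upper quartile scaling, a test without the low-count filter, a minimum mean CPM of 5, a replicate block, the non-neuronal score as a term and leaving out each library. Doubled changes without saline 3, and the median without the 2 name matches, were added after seeing the data. The genes and lists were chosen with earlier results of these data known. Named are up to 10 genes per direction with the smallest p, those without overlap, the 8 with the highest RPKM, 19 genes known from dopaminergic axon guidance or its ligand and receptor pairs, and up to 4 per further list. The 5 untested genes and brief values of the remaining members were added to account for every gene.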

Additional observations from a re-analysis of the deposited data

Results flagged for a closer look

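Of 88 groups of 4 values looked at, 10 held a library whose gap to its nearest neighbour was so large a part of the group's range that it passed Dixon's 95% critical value. Chance gives about 1 in 20 only for independent values with a normal spread. These groups come from the same 8 libraries and some hold few counts, so no excess can be read from the 10. Among genes of moderate or high level, MPTP 1 was low for Sema6d at 190.3 CPM, with the other MPTP libraries at 208 to 212 CPM. MPTP 3 was low for Plxna1 at 80.4 CPM (others 107.4 to 109.8 CPM) and for Sema5b at 55.4 CPM (others 68.9 to 70.1 CPM). MPTP 4 was high for Ntn1 at 96.3 CPM (others 73.1 to 74.3 CPM). Saline 3 was high for Ephb1 at 32.0 CPM, with the remaining saline libraries at 12.4 to 15.6 CPM, and its dopaminergic marker score was low at 7.15, against 7.71 to 7.76.

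The other cases were at very low levels. Saline 2 was low for Efna1 at 0.165 CPM (others 0.667 to 0.734 CPM). MPTP 4 was high for Efna4 at 0.451 CPM, and saline 2 was the only saline library with counts of Efna4, at 0.0449 CPM. Saline 1 was high for Epha2 at 0.413 CPM.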

How the results depend on the processing

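The count of guidance genes called was 0 under scaling by DESeq2 size factors or upper quartile, without the low-count filter, at a minimum mean CPM of 5, by DESeq2 and in the score-adjusted fit. It was 0 to 2 when 1 library was left out, 2 only without saline 3, and 5 by DESeq2 without saline 3. Genes without overlap numbered 2 to 10 when 1 library was left out. The 10 were found without saline 3, and Robo3 among them had passed the low-count filter through its MPTP libraries. With Robo3 and Sema3g left out they were 9 of 64 (14.1%), against 14.7% of all genes. With all 8 libraries the shares were 3.12% and 4.19%. Over the further lists the calls were 0 to 1 of 82 tested genes when 1 library was left out, the 1 being without saline 3 (beside 1.84% of all genes). By DESeq2 without saline 3 they were 4 of 82, beside 5.12% of all genes. Over all genes the 17 calls became 11 at a minimum mean CPM of 5, 53 by DESeq2, 829 by DESeq2 without saline 3 and 26 in the score-adjusted fit without saline 3. They became 8 to 297 when 1 library was left out, with 8 without MPTP 4, 10 without saline 1 and 297 without saline 3. The median RPKM was 2.35 with the longest transcript. Same-numbered libraries of the 2 groups did not deviate together (correlations -0.12 to 0.04, against -0.07 to 0.09 for other pairs), so the numbers are not taken as pairs. With the replicate block, 14 genes and 0 guidance genes were called, with a guidance median of 0.08.

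Of 624 alternatives for the 37 named genes, 564 kept direction and side of the threshold, 6 passed it and 54, in 20 genes, changed sign, none of a gene with a log2 fold change over 0.37 in size. When 1 library was left out, the lowest and highest log2 fold changes were -0.14 and 0.024 for Dcc, -0.011 and 0.14 for Efna5, -0.047 and 0.19 for Efnb2, -0.056 and 0.038 for Epha5, -0.036 and 0.26 for Nrp2, -0.031 and 0.15 for Ntn1, -0.034 and 0.11 for Plxna1, -0.12 and 0.037 for Plxna2, -0.033 and 0.10 for Plxna4, -0.012 and 0.10 for Plxnc1, -0.55 and 0.048 for Sema3e, -0.048 and 0.046 for Sema6d, -0.14 and 0.084 for Sema7a, -0.11 and 0.038 for Slit2 and -0.019 and 0.054 for Unc50. In the score-adjusted fit, values were -0.045 for Efnb2, 0.035 for Epha5, -0.098 for Ephb1, -0.051 for Nrp2, -0.010 for Plxna1, -0.026 for Plxna4 and 0.0063 for Robo2. In that fit without saline 3 they were 0.031 for Epha5, -0.42 for Nrp1, -0.010 for Nrp2, 0.076 for Robo2, -0.022 for Sema5b, -0.11 for Sema6b, -0.038 for Sema6d, 0.25 for Sema7a and -0.029 for Unc50. By DESeq2 without saline 3 they were -0.034 for Ntn1, 0.035 for Plxna2, 0.046 for Sema3e, -0.050 for Sema6d, 0.083 for Sema7a, 0.035 for Slit2 and -0.021 for Unc50. The cause was not tested. Of the 5 genes with too few counts to be tested, Robo3 and Sema3g passed the filter without saline 3.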
